A study of Mus musculus with 14 samples.

Results

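B2 and B3 SINE elements are short interspersed repeats of the mouse genome. They were taken here as every element that the deposited element tables annotate as class SINE and family B2, under 5 repeat names (B2_Mm1a, B2_Mm1t, B2_Mm2, B3 and B3A). There were 12768 such elements among 129578 elements of all kinds. Of these, 9999 were listed for immunoprecipitates (IP) of MVH, 3709 for sorted round spermatids and 940 for both. Some places are listed under more than 1 repeat name, and the values of such entries can differ. This holds for 142 of the B2 elements in MVH IP and 69 in round spermatids. Each is counted under its own name in the numbers below. All mice were C57BL/6 and at least 6 weeks old. Per the labels, the MVH IP came from testis cells that were fixed with formaldehyde, sonicated and spun down before an antibody against MVH, a germ cell RNA helicase, was applied to enrich the chromatoid body, a cytoplasmic RNA granule of round spermatids. The labels' sample type for these libraries reads lysate, while the protocol puts the IP on the second pellet. Its 3 libraries share 1 deposited value per element, and so do the 2 round spermatid libraries, 1 of which was made from RNA above 500 bp. Library DNA of 350 to 500 bp was cut from a gel after not-so-random priming. There is therefore no spread between replicates, no standard deviation and no test for any difference below, and sequencing depth is unknown. Values of the IgG and ACR control IPs are not used here.

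B2 elements descend from a transfer RNA gene and carry an internal promoter from which RNA polymerase III can transcribe them. New copies are inserted with the enzymes of LINE-1 elements, and B3 and B3A are older relatives of the B2_Mm1 and B2_Mm2 copies. Most copies cannot be read as separate genes, because they also lie inside longer RNA polymerase II transcripts, in introns, untranslated regions and noncoding RNAs. Free B2 RNA is best known for binding RNA polymerase II after heat shock. An FPKM value (by the usual definition, fragments scaled by locus length and by mapped fragments) of an element cannot separate these sources.

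In the sorted cells round spermatid markers summed highest among the listed markers, but listing starts at 5 FPKM, so purity was not tested. Of 7 round spermatid markers, all were listed for round spermatids, from 11.1 FPKM (Tssk6) to 3459 (Tnp1), while spermatocyte markers, 4 of 4 listed, stood at 5.01 to 14.0 FPKM. The round spermatid table listed 0 of 4 spermatogonial, 0 of 5 Sertoli cell, 0 of 4 Leydig cell and 0 of 3 macrophage and blood markers. The MVH IP table listed 6 of 7 round spermatid markers, 3 of 4 spermatocyte, 1 of 4 spermatogonial, 2 of 5 Sertoli cell (Rhox5 had no match in any table), 4 of 4 Leydig cell and 0 of 3 macrophage and blood markers. The markers summed to 5458 FPKM (round spermatid), 33.3 (spermatocyte) for round spermatids, with nothing listed from the other lists. For MVH IP the sums were 20035, 214, 9.24 (spermatogonia), 110 (Sertoli) and 102 (Leydig). These sums leave out unlisted markers, and unlisted did not mean absent. The joint gene table had Tssk6 at 112 FPKM for MVH IP and Sycp3 at 66.1. It had Kit at 20.3, Zbtb16 at 10.9 and Gata4 at 7.18. The unlisted Stra8, Sox9, Cd68, Csf1r and Hbb-b1 were under 5 FPKM there. The part of each cell type in the B2 values was not tested. In such bulk samples fewer cells of a type and less RNA per cell cannot be told apart.

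The makeup of the B2 family differed between the tables. B2_Mm1a and B2_Mm1t made up 12.6% of the B2 elements in MVH IP, with 576 and 680 elements, and 3.56% in round spermatids, with 41 and 91. B2_Mm2 made up 21.2% and 15.9%, with 2123 and 591 elements. The older B3 and B3A together held 66.2% in MVH IP and 80.5% in round spermatids, with 3601 and 3019 elements in the first and 1500 and 1486 in the second. Among elements listed in both tables the B3 and B3A share was 87.0%. The MVH IP table was thus the longer one for every repeat name, most of all in relative terms for B2_Mm1a. The treatment of reads that fit several copies is not stated in the labels or headers.

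**Figure D1:**
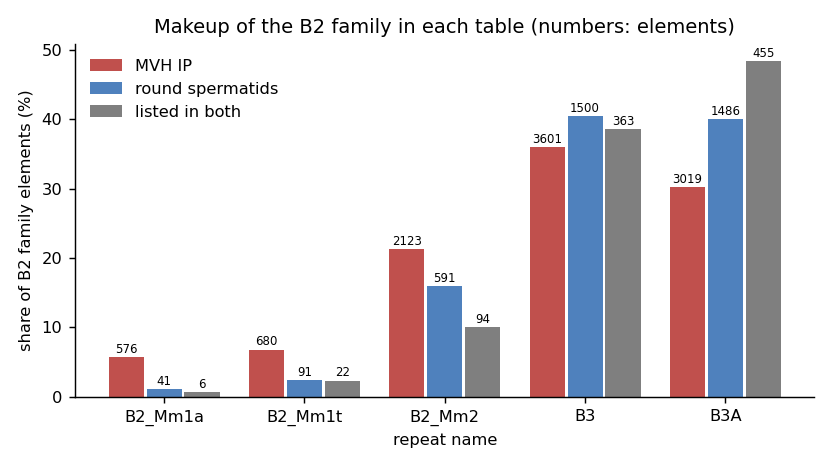
Share of each repeat name (x axis) among the B2 family elements of each table in percent (y axis), for MVH IP, round spermatids and the elements listed in both, with the number of elements above each bar. B2_Mm1a and B2_Mm1t are 5.76% and 6.80% of the MVH IP elements but 1.11% and 2.45% of those of round spermatids.

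The family as a whole was 10.6% of all elements listed for MVH IP and 7.84% of those for round spermatids. The table for MVH IP held 2.70 times as many B2 elements as that for round spermatids. The same ratio was 1.60 for B1 elements (15857 and 9916), 1.80 for B4 elements (11740 and 6517) and 1.99 for all elements. Both tables list elements from 5 FPKM upward (the lowest B2 values were 5.00 in each), so an element that is missing from one was below that floor or not listed for another reason. Few elements were listed in both: 9.40% of the MVH IP elements and 25.3% of the round spermatid elements. Over all elements the shares were 12.8% and 25.5%.

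Listing in the other table went with level. Of the B2 elements at 5 to 10 FPKM in MVH IP, 2.58% were also listed for round spermatids, against 3.23% of all elements. At 1000 FPKM or more it was 67.3%, or 99 of 147, against 77.9%. Between these ends, 8.11% were shared at 10 to 100 FPKM and 31.2% at 100 to 1000, against 8.97% and 35.1%. In round spermatids the B2 shares were 20.3% at 5 to 10 FPKM and 30.0% at 10 to 100, against 19.7% and 24.96% of all elements. They were 32.6% at 100 to 1000 FPKM and 80% (12 of 15) above that, against 52.5% and 79.4%. The B2 share was thus below that of all elements in every MVH IP range, and in round spermatids only at 100 to 1000 FPKM. The difference between the B2 family and all elements was not tested.

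**Figure D2:**
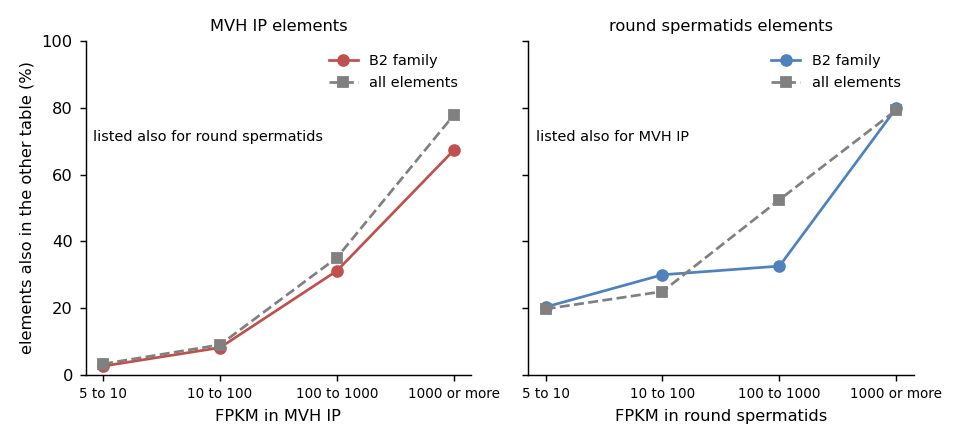
Percent of elements that are also in the other table (y axis) by FPKM range (x axis), for elements listed for MVH IP (left) and for round spermatids (right), with B2 family elements as solid and all elements as dashed lines. B2 elements at 100 to 1000 FPKM in round spermatids were shared in 32.6% of cases against 52.5% for all elements.

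Levels were low for most members. In MVH IP the median B2 element had 14.1 FPKM, with quartiles of 7.85 and 40.1. In round spermatids it had 9.82, with quartiles of 6.65 and 19.5. Over all elements the medians were 17.8 and 12.0 FPKM. In MVH IP the levels were ordered by repeat name, with medians of 7.92 FPKM for B2_Mm1a, 9.40 for B2_Mm1t, 12.3 for B2_Mm2, 16.9 for B3 and 19.3 for B3A. In round spermatids the medians lay between 8.62 (B2_Mm2) and 10.7 (B2_Mm1t), with B2_Mm1a at 10.4, B3A at 10.6 and B3 at 9.53. This order depended on the elements kept. At 10 FPKM or more it was that of MVH IP, from 15.2 (B2_Mm1a) to 20.6 (B3A), and at 100 bp or more B2_Mm1a was again lowest (7.51) and B3A highest (9.39). The middle ranges of all names overlapped in both tables. Elements at 100 FPKM or more were 12.0% in MVH IP, from 3.12% of B2_Mm1a to 15.8% of B3A. In round spermatids they were 3.96%, or 147 elements, of which 90 were B3A.

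**Figure D3:**
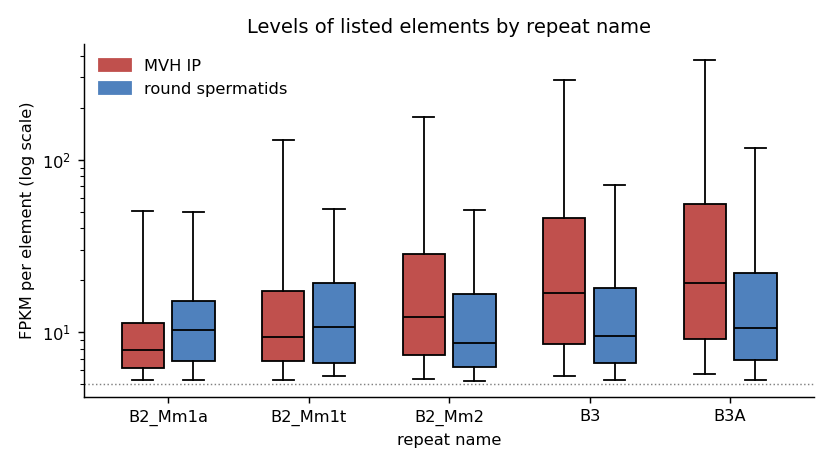
FPKM of listed elements (y axis, log scale) by repeat name (x axis) for MVH IP and round spermatids; boxes span the quartiles, the line is the median and whiskers reach the 5th and 95th percentiles over elements, with the floor of 5 FPKM dotted. Medians climb from 7.92 FPKM (B2_Mm1a) to 19.3 (B3A) in MVH IP and stay between 8.62 and 10.7 in round spermatids.

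Levels differed by locus length. The 81 elements under 50 bp had a median of 502 FPKM in MVH IP and a lowest value of 41.3, while the 4942 elements of 150 to under 200 bp had a median of 12.5. In round spermatids the medians of these 2 classes were 17.8 FPKM (213 elements) and 7.80 (1123 elements). Of the elements at 1000 FPKM or more, 58 of 147 in MVH IP and 11 of 15 in round spermatids were under 100 bp. The upper quartile under 50 bp in MVH IP was 1509 FPKM, the value that 12 B2_Mm1t loci of chromosome 2, described below, have in common. These 12 are among the 147 and may not be separate measurements. The FPKM of a locus shorter than the 350 to 500 bp fragments is poorly defined. This covers most of the family, with median lengths of 182 bp in MVH IP and 152 bp in round spermatids. Elements under 100 bp are named below only where that is said, but this limit does not make the longer ones well defined. The rank correlation of length with FPKM was -0.17 in MVH IP and -0.20 in round spermatids, across elements that share libraries and are not replicates.

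**Figure D4:**
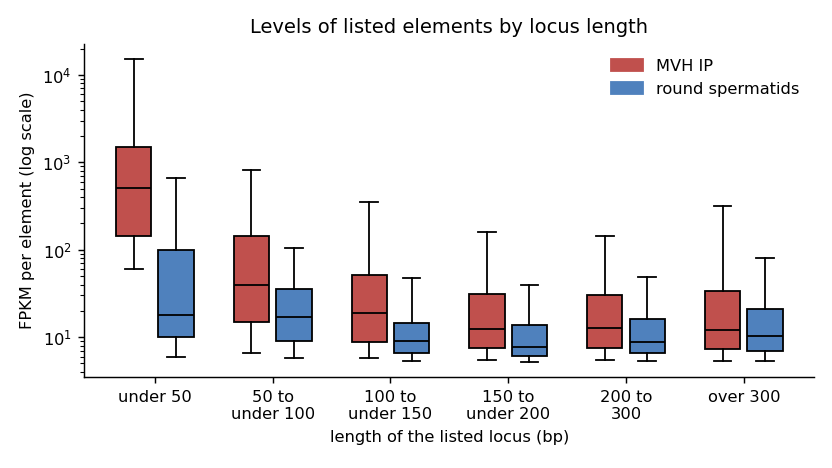
FPKM of listed elements (y axis, log scale) by length of the listed locus in bp (x axis), for MVH IP and round spermatids; boxes span the quartiles, the line is the median and whiskers reach the 5th and 95th percentiles over elements. In MVH IP the median falls from 502 FPKM under 50 bp to 12.5 at 150 to under 200 bp.

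Some listed loci were longer than others of the family. In MVH IP 1228 B2 loci, 12.3%, were over 300 bp, up to 12124 bp, and in round spermatids 432, or 11.6%. None of the 2098 B2 elements that are listed for lysate exceeded 300 bp. Over all elements the shares over 300 bp were 25.4% for MVH IP, 14.1% for round spermatids and 38.3% for lysate. What the longer B2 loci hold was not tested, so those named below need not be single copies of their repeat. Exact repeats of a value were also common: 26.4% of the B2 values in MVH IP and 27.7% in round spermatids equalled, to all deposited digits, the value of another element of the same length. Over all elements the shares were 25.9% and 37.6%.

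Several groups of separate loci had 1 common value. The groups below were chosen after their values were seen. On the unplaced part of the Y chromosome, which holds Sly and Ssty2, spermatid genes with many copies, 14 B2_Mm2 elements of 168 bp were each at 33.0 FPKM in MVH IP. In the same region 14 B3 and 14 B3A elements of 133 bp were each at 7.09 FPKM. On chromosome 2, 12 B2_Mm1t loci between 175177686 and 177737583 were each at 1509 FPKM, among predicted genes such as Gm14391 and Gm14430. Their lengths ran from 37 to 4764 bp, so some were under 100 bp. The common value did not change with the listed length, so it was not scaled by that length. On the X chromosome, 8 B3A elements of 110 bp between 144391300 and 146179598 were each at 15.9 FPKM, in a stretch with Luzp4 and predicted genes. In round spermatids 6 B3 elements of 131 bp shared 20.1 FPKM on chromosome 5, between 11045490 and 11923492, where Speer1-ps1 lies. A further 3 B3 elements shared 7.59 FPKM among the Zscan4 genes of chromosome 7. The elements of such a group cannot be told apart by their values and may not be separate measurements. Why they share a value was not tested.

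The unplaced Y sequence held 134 B2 elements in MVH IP, or 1.34% of the family, and 3 in round spermatids, or 0.0809%. The 134 include the 14 B2_Mm2, 14 B3 and 14 B3A elements named above, each group with 1 common value. Such elements may not be separate measurements, but each is counted in the shares and the median below. Over all elements this sequence held 0.60% (566) in MVH IP and 0.72% (341) in round spermatids. The 134 elements had a median of 8.64 FPKM and reached 145, and comprised 60 B3, 48 B2_Mm2, 24 B3A, 1 B2_Mm1a and 1 B2_Mm1t. The 3 in round spermatids ranged from 7.29 to 10.2 FPKM. On the X chromosome the family held 3.42% and 2.59%, against 4.47% and 3.49% over all elements. Chromosome 11 held 8.76% of the MVH IP elements and 7.12% of the round spermatid elements, against 6.27% and 5.37% over all elements.

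Nearly all B2 elements of both tables lay outside annotated genes. Of the MVH IP elements 126, or 1.26%, and of the round spermatid elements 69, or 1.86%, lay whole inside 1 of the 21905 gene loci of the joint table. The shares over all elements were 1.23% and 1.72%. Of the B2 elements listed for lysate, 75.6% lay inside a gene locus, against 60.6% of all elements listed there, so the MVH IP and round spermatid tables cover another part of the genome than the lysate table. None of the B2 elements of the MVH IP and round spermatid tables lay in 1 of the 197 piRNA clusters, where 39 (1.86%) of those listed for lysate did. Over all elements it was 0 for MVH IP, 1 for round spermatids and 492 (2.15%) for lysate. The lysate table, whose values are a score with no fixed unit, shared 85 B2 elements with MVH IP and 118 with round spermatids, and 52 were in all 3 tables. Assembled transcripts without a gene name, outside gene loci, held 1.18% of the MVH IP elements and 4.45% of the round spermatid elements, against 1.25% and 3.76% over all elements.

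The nearest gene was a median of 25565 bp away in MVH IP and 19119 bp in round spermatids, against 46245 and 31424 bp for all elements. Within 10 kb of a gene, those inside one included, lay 31.8% of the B2 elements in MVH IP and 38.4% in round spermatids, against 23.5% and 30.4% of all elements. Levels changed little with distance, as the median in MVH IP was 16.7 FPKM at 1 to 1000 bp and 14.5 beyond 100000 bp. In round spermatids these medians were 9.93 and 10.2 FPKM. Where the nearest gene with a listed strand lay within 10 kb, 47.9% of 1804 B2 elements in MVH IP and 43.4% of 955 in round spermatids were on its downstream side, against 44.6% and 42.6% of all elements. Another listed element lay within 1 kb of 23.7% of the B2 elements in MVH IP and 28.1% in round spermatids, against 21.8% and 22.3% of all elements, so neighbours can belong to 1 transcript.

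Dense stretches differed between the tables. In round spermatids the adjacent windows chr9:73000001-73100000 and chr9:73100001-73200000 held 13 and 8 B2 elements, at medians of 18.8 and 10.1 FPKM. They overlapped 0 genes of the joint table but 6 and 8 assembled transcripts, and held 67 and 37 elements of all kinds. MVH IP had 2 and 1 B2 elements there, of which 0 were the same. In MVH IP the densest window, chr11:77400001-77500000, held 10 B2 elements at a median of 12.4 FPKM beside Taok1, a protein kinase gene, and Nufip2, and round spermatids had 1. Most windows of 100 kb with any B2 element held 1: 5036 of 7064 in MVH IP and 2424 of 2958 in round spermatids. The windows were chosen after their counts were seen.

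MVH IP was set against round spermatids, the cells that carry the granule, over the 940 shared elements. Their median was 80.1 FPKM for MVH IP against 12.2 for round spermatids, with a median log2 ratio of 2.39 on the log2(FPKM + 1) scale. By 2-fold or more, 688 B2 elements (73.2%) were higher in MVH IP and 41 (4.36%) lower, and 211 lay between. Of all 12057 shared elements 71.7% were higher and 7.32% lower, with a median log2 ratio of 2.43, so the B2 counts are near the background. The 2 tables were scaled apart. After centring on the median of all shared elements the B2 median was -0.0396, with 322 higher and 319 lower, where the background was 33.5% higher and 34.2% lower. Centring on the 3855 genes that both gene tables list, whose median log2 ratio was 1.85, left a B2 median of 0.53, with 405 higher (43.1%) and 228 lower (24.3%). With that centring 43.1% of all shared elements were higher and 26.2% lower, so these counts too are near the background.

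By repeat name the median log2 ratio was 2.79 for the 94 shared B2_Mm2 elements, 2.58 for 363 B3, 2.20 for 455 B3A, 1.37 for 22 B2_Mm1t and 1.20 for 6 B2_Mm1a. The quartiles of these names overlapped, as with 1.24 to 4.53 for B2_Mm2 and 0.67 to 3.59 for B3A. By locus length it was 3.20 under 100 bp and 2.16 at 200 to 300 bp. B1 elements had a median of 2.58 and B4 elements one of 2.53. The rank correlation of the 2 levels across the 940 elements was 0.41, a description across elements that share libraries.

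**Figure D5:**
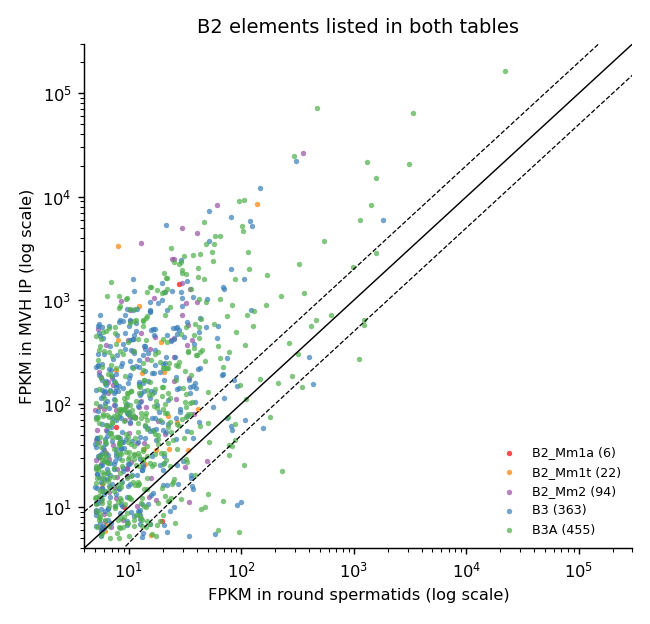
FPKM in MVH IP (y axis) against FPKM in round spermatids (x axis), both on log scales, for the 940 B2 elements in both tables, coloured by repeat name; the solid line marks equal levels and the dashed lines a 2-fold difference of FPKM + 1. Of the points, 688 lie on or above the upper dashed line and 41 on or below the lower one, before any centring of the tables.

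The largest differences among shared elements of at least 100 bp were above 1000 FPKM in MVH IP, at 1092 to 8276, and at 6.43 to 60.2 in round spermatids. A B2_Mm1t element at chr9:78206786-78206905 (120 bp) reached 3324 FPKM in MVH IP against 8.01 for round spermatids, which gives a log2 ratio of 8.53. It lay outside genes, 7955 bp from Dppa5a, a gene of pluripotent cells that was at 0 FPKM in MVH IP. A B2_Mm2 element at chr3:100625493-100625665 was at 3577 and 12.8 FPKM, 3716 bp from Vtcn1, an immune checkpoint gene at 12.1 FPKM in MVH IP. Both neighbouring genes were far below the element beside them, but these elements were chosen for their large ratios. Genes and elements also come from tables scaled apart, so nothing is read from this contrast. A B3A element at chr15:86841763-86841909 was at 1485 and 6.89 FPKM and lay 512829 bp from the nearest gene. A B2_Mm2 element at chr6:30422543-30422687 was at 4991 and 29.6 FPKM, and a B3A element at chr11:74409556-74409696 at 1092 and 6.43.

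The other 3 of the 8 largest ratios were 7.11, 7.09 and 7.08 on the log2 scale. A B3 element at chr14:90747729-90747853 reached 7224 against 51.4 FPKM, with a log2 ratio of 7.11. A B3 element at chr6:24543196-24543332 was at 1597 and 10.8, 4438 bp from Lmod2, an actin-binding gene of heart muscle listed at 0 in MVH IP. A B2_Mm2 locus of 722 bp at chr7:39092714-39093435 was at 8276 and 60.2 FPKM. It lay 36346 bp from Pop4, which encodes a subunit of RNase P. Of these 8 elements, 0 lay in a gene or an assembled transcript, and 2, those near Dppa5a and on chromosome 14, were also in the lysate table.

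At the other end all 8 elements were B3 or B3A copies, names that hold 87.0% of the shared elements, and they were at 5.21 to 11.5 FPKM in MVH IP. A B3A element at chr6:80793915-80794097 had 5.74 FPKM in MVH IP against 96.0 for round spermatids, which gives a log2 ratio of -3.85, and lay 818988 bp from Lrrtm4, a synaptic gene. A B3 element at chr9:92649412-92649545 was at 5.46 and 58.1 FPKM, and a B3A element at chr9:71652693-71652864 at 5.97 and 62.2. All 8 log2 ratios, before any centring of the tables, lay between -3.85 and -2.14. A B3 element at chr17:52545549-52545692 was at 11.1 and 98.7 FPKM, 196395 bp from Kcnh8, a potassium channel gene. A B3 element at chr5:124990369-124990547 was at 10.5 and 92.1 FPKM, only 252 bp from Tmed2, a gene of vesicle transport that was itself at 48.0 FPKM in MVH IP. The last 3, at chr19:7482043-7483062, chr12:68467619-68467767 and chr9:117823935-117824090, were at 5.21, 11.5 and 9.91 FPKM in MVH IP and at 33.9, 68.2 and 47.3 in round spermatids.

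Among elements of at least 100 bp listed for MVH IP alone, the highest was a B2_Mm2 locus at chr1:167641546-167641866 (321 bp) with 26216 FPKM, 3320 bp from Rcsd1. It was followed by a B2_Mm2 locus at chr18:77957101-77957555 with 10206 FPKM, a B2_Mm1t locus at chr12:110005969-110006231 with 6153, 25289 bp from Yy1, a zinc finger regulator gene, a B3A locus at chr5:61134438-61134953 with 4416 and a B3A element at chr3:97056366-97056521 with 4149. In round spermatids these 5 were under 5 FPKM or unlisted, and 0 of them were in the lysate table.

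Among those listed for round spermatids alone, 1 element of at least 100 bp stood far above the next. A B3A element of 101 bp at chr9:119796314-119796414 was at 48645 FPKM, 7598 bp from Gorasp1, a Golgi structure gene at 2.55 FPKM in MVH IP. The next, a B3A element at chr7:114379696-114379879, was at 707 FPKM and lay inside an assembled transcript, 25265 bp from Rbmxl2, a testis gene for an RNA-binding protein. A B2_Mm2 element at chr7:54111175-54111297 was at 446 FPKM, 177 bp from Ldha, a lactate dehydrogenase gene at 214 FPKM in MVH IP. A B3 locus of 417 bp at chr3:90040102-90040518 was at 426 FPKM, 339 bp from Jtb, and a B3A element at chr3:8616939-8617110 was at 398. The elements beside Ldha and Jtb were also the highest B2_Mm2 and B3 elements of at least 100 bp for round spermatids.

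The highest elements of each name, at 100 bp or more, were different ones in the tables. In MVH IP they were a B2_Mm2 element at chr14:62214538-62214690 with 26519.6 FPKM (355 in round spermatids), 2372 bp from Dleu2, a noncoding RNA gene, a B3 locus at chr10:93097083-93097495 with 22362 (307), a B3A element at chr7:149730296-149730407 with 9253 (106), 106 bp from Nctc1, and a B2_Mm1t locus at chr2:129264630-129265156 with 8415 (137). The highest B2_Mm1a element of at least 100 bp, at chr11:29445286-29445452, was at 397 FPKM and unlisted for round spermatids. It lay 30 bp from Mtif2, a mitochondrial translation initiation factor gene at 22.1 FPKM. In round spermatids the highest B2_Mm1t and B2_Mm1a loci were at 233 FPKM (chr10:110338555-110338770) and 49.7 (chr5:79594302-79594735), and both were unlisted for MVH IP. Of any length, the highest value was that of a B3A fragment of 44 bp at chr19:27212738-27212781, with 164167 FPKM for MVH IP against 22196 for round spermatids. It was singled out after its value was seen, and its length makes the FPKM unsure.

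Few elements lay inside genes. The 126 elements in MVH IP lay in 80 genes, 10 of them in A130040M12Rik. Elements are listed only from 5 FPKM, while hosts in the joint table have no floor. Hosts were counted once per element, so a gene with several elements counts several times. Of the 126 elements 65 had a host under 1 FPKM, and for 28 of these it was at 0. Over such a host any listed element is more than 2-fold higher. The median of 17.8 FPKM for the elements, that of 0.895 for the hosts and the median log2 ratio of 2.92 are therefore set in part by the floor, and no direction is read from them. For the 17 elements whose host is listed from 5 FPKM in the separate gene table the median log2 ratio was -1.46. For the 21 of 69 elements in round spermatids whose host is listed for the same cells it was -0.79. A B3 element in Gm10220, at chr5:26441943-26442086, was at 616 FPKM and its host at 355. A B3 element in 1700108J01Rik, at chr14:122817269-122817433, was at 219 FPKM in MVH IP and its host at 284. Elements and genes come from tables scaled apart, and with 1 value each no test was possible.

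The genes of RNA polymerase III, which transcribes free B2 RNA, were taken from the joint table for MVH IP and lysate, the latter 1 library. Of 26 genes for its subunits, its transcription factors, its repressor Maf1 and the RNA-binding protein Ssb, 13 were higher in MVH IP by 2-fold or more and 0 lower. Of all 13854 genes tested 47.3% were higher and 7.53% lower, with a median log2 ratio of 0.92 against 1.06 for the list. After centring on all genes 7 were higher and 4 lower, with backgrounds of 18.7% and 20.6%. The largest log2 ratios were those of Polr3f at 25.8 and 2.59 FPKM (2.90), Polr3a, the largest subunit, at 17.9 and 2.75 (2.33), and Maf1 at 41.0 and 8.17 (2.20). The smallest were those of Polr3e at 4.41 and 8.32 FPKM (-0.79), Polr3c at 13.2 and 18.8 (-0.48) and Polr3b at 6.18 and 7.33 (-0.21). In the separate gene table for MVH IP Polr3a was not listed, although the joint table has it at 17.9 FPKM.

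Of 12 genes known for acting on B2 RNA or on repeats in germ cells, 10 had a mean of 1 FPKM or more, of which 3 were higher and 1 lower, against 47.3% and 7.53% of all genes. Their median log2 ratio was 0.20. After centring, 2 were higher and 4 lower, against 18.7% and 20.6%, and the median was -0.71. Higher were Dnmt3l, a cofactor of DNA methylation, at 32.9 and 3.68 FPKM, and the histone methyltransferase genes Suv39h2 at 49.6 and 8.71 and Suv39h1 at 7.19 and 1.57. Lower was Trim28, a corepressor at repeats, at 30.7 and 73.8 FPKM. These 4 were named after their values were seen. Dnmt3l and Suv39h2 were not listed in the separate gene table for MVH IP. That table had Suv39h1 at 10.4 FPKM and Trim28 at 50.2. Ezh2, whose protein acts on B2 RNA, was at 50.1 and 27.1 FPKM, and Mael, a piRNA pathway gene, at 329 and 341. Adar was below the filter, at 0.0464 and 0.945 FPKM, and so was Piwil4, listed at 0 in MVH IP.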

How the data were processed

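RNA was sequenced in 14 libraries of 9 groups. TopHat, Cuffdiff and the build mm9 are named in the submitters' processing notes. Versions, filters, strand use and the handling of reads with several places are not stated in the labels or headers. The authors' element and gene tables hold FPKM, per the file headers, with 1 value per group. The lysate element table is headed FPKM, but 27.6% of its deposited values are whole numbers exactly and the lowest is 21.0, so they were read as a score and used only for which elements are listed. Left out was 1 column of small RNA values.

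Rows of class SINE and family B2 were taken. Rows with the same repeat and place were merged at the highest value (6 dropped for MVH IP, 13 for round spermatids). Rows with the same place but another repeat name were kept apart. Places were counted from 1, after adding 1 to the starts of these tables, which count from 0. Elements were matched by name and identical place. Ratios are log2 of (FPKM + 1), called at 2-fold, over all elements, and understate changes of low elements. The planned limma test was not possible with 1 value per group. Genes needed a mean of 1 FPKM over lysate and MVH IP.

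Named elements were, at 100 bp or more, the 8 largest and 8 smallest ratios, the 5 highest listed for each group alone and the highest of each name, and 3 polymerase III genes at each end. Members, lists and rules were chosen with earlier results of these data known. Python 3.11.15, numpy 2.4.6, pandas 2.3.3 and scipy 1.17.1 were used, and calls and overlaps were tested on simulated data. Sequences are not used here, because the reference at hand is of another build.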

Additional observations from a re-analysis of the deposited data

How the results depend on the processing

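No paired analysis was possible because each group has 1 deposited value per element, and for the same reason leaving out a library was not run. Of the MVH IP over round spermatid results, the median log2 ratio of 2.39 became 2.73 at a mean of at least 10 FPKM, 0.53 centred on genes. Centred on all elements it was -0.0396, the other direction. The count higher (688) became 322 centred on all elements and 405 centred on genes, and the count lower (41) became 319 and 228. Over all shared elements the shares were 33.5% higher and 34.2% lower centred on all elements, and 43.1% and 26.2% centred on genes. Without loci that share a value with a same-length locus, an alternative chosen after seeing the data, the median was 2.76 and 25 were lower. At 10 FPKM or more, the elements listed fell to 6355 for MVH IP, 1818 for round spermatids and 517 for both, their shares of all elements were 9.71% and 6.62%, and their medians 28.0 and 19.9 FPKM. At 100 bp or more the shares were 11.6% and 9.05% and the medians 13.3 and 8.73 FPKM. By name, the medians at 10 FPKM or more in MVH IP were 13.7 (B2_Mm1a), 19.0 (B2_Mm1t), 23.9 (B2_Mm2), 30.1 (B3) and 32.4 (B3A), and in round spermatids 15.2, 19.1, 19.2, 19.4 and 20.6. At 100 bp or more they were 11.2 (B2_Mm2), 15.9 (B3) and 18.1 (B3A) in MVH IP and 7.51 (B2_Mm1a), 8.41 (B2_Mm1t), 7.84, 8.63 and 9.39 in round spermatids. The order of names in round spermatids thus changed with both limits. These moves follow from the floor and the length limit themselves. With assembled transcripts, 244 and 234 elements lay inside a feature. The element over host median of 2.92 was 4.45 with a pseudocount of 0.1 and -1.46 with the separate gene table, which lists only hosts from 5 FPKM. The element floor fixes part of the first 2 values. Over both gene lists together 16 genes were higher and 1 lower, and 9 and 8 after centring. Of the alternative values, 32 stayed within their limits, 40 moved and 2 reversed. Sequencing depth is unknown and bounds no value here.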
